A study of Homo sapiens with 13 samples.

Results

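The genes described here are 10 plasma membrane amino acid transporter genes, SLC7A11, SLC7A5, SLC3A2, SLC7A1, SLC6A9, SLC1A4, SLC1A5, SLC38A1, SLC38A2 and SLC43A1. They were taken by symbol from a table of 60591 genes, all 10 were found there, and all 10 were among the 19514 genes that passed a filter on low counts. The RNA was of the TE11 line, derived from a human squamous carcinoma of the esophagus, after 48 h in 1 of 4 conditions. There were 4 libraries of vehicle (0.1% DMSO), 3 of chloroquine at 10 µM, 3 of 5-fluorouracil (5-FU) at 25 µM and 3 of the combination of both drugs at those doses. Whether the drug groups also held DMSO is not stated. Chloroquine collects in lysosomes and blocks the last steps of autophagy, while 5-FU blocks the making of thymidylate and is built into nucleic acids. All groups share the 1 cell line. The labels do not call the replicates separate cultures, and the p-values then cover no more than the spread of these libraries, which may be technical.

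Many amino acid transporters of the SLC families carry amino acids across the cell membrane in exchange for other amino acids or together with sodium. SLC3A2 (also called 4F2hc or CD98) is a heavy chain that carries no substrate itself and brings light chains such as SLC7A5 and SLC7A11 to the membrane. SLC7A11 takes up cystine in exchange for glutamate, which supplies cysteine for glutathione. When amino acids run short, the kinase GCN2 raises translation of the transcription factor ATF4, and ATF4 acts on many of these genes at composite C/EBP-ATF elements. MYC is another known activator of several of them.

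The libraries held 17834539 to 23679833 counts. All 12 markers of squamous epithelium that were looked at had at most 10 counts in each of 8 libraries, where their sum was 1 to 9, so the libraries are called TE11 only as labelled. Markers of epithelium in general (6 genes) summed to 880 to 1850 counts there, and KRT18 was the largest part. Over all 13 libraries KRT18 had 747 to 1361 counts and KRT8 54 to 389. EPCAM had 27 to 74 counts, CDH1 27 to 57, CLDN4 1 to 18 and KRT19 0 to 4. The other 5 libraries (vehicle replicate 4, chloroquine replicates 1 and 2, 5-FU replicate 2 and combination replicate 2) had 50 or more counts of the collagen gene COL1A2. In those 5 libraries the sum of 5 fibroblast markers was 663 to 2489 counts against 202 to 613 in the 8. COL1A2 is itself 1 of these 5 markers, so the split helped to set that sum. COL1A2 gave 153 of the 663 counts in combination replicate 2 and 3 of the 613 in 5-FU replicate 3. The sum of 5 exocrine gland markers was 7 to 530 in the 5 libraries against 4 to 11 in the 8. The share of counts in mitochondrial transcripts was 1.60 to 1.86% in vehicle and 2.21 to 2.85% under chloroquine, and it was 2.81 to 3.53% under 5-FU and 2.61 to 2.85% in the combination. The part of these differences in the results was not tested. Calls that change in the 8 or in the 5 libraries alone are given beside the results. In such bulk RNA, fewer cells with a transcript and less of it per cell cannot be told apart.

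Start-site sequences are shown first, searched for letters that factors such as ATF4 and MYC are known to bind. Any link between these letters and the changes in level below was not tested. RefSeq promoter windows (GRCh38.p14, 250 bases before to 50 after a start) were found for 9 of the 10 genes, 16 windows in all, and SLC7A11 had no entry. The C/EBP-ATF-like letters TGATGNAA, searched on both strands, were in 5 of the 16 windows, against 3.62% of all 35116 windows. By gene this was 5 of 9 members against 4.46% of 27305 genes. These 9 had 1 to 3 windows each, and a gene with more windows has more chances of a match. The windows with a match are of SLC3A2, SLC7A1, SLC1A4, SLC1A5 and SLC38A1. A match is a description of letters and not a binding site. The stretches below run 5′ to 3′ on the strand of the gene, with the matched letters in capitals.
SLC3A2 (chr11:62881714-62881743, plus strand): ctgaagtaatgtgcaggactccTTACATCA
SLC7A1 (chr13:29595659-29595726, minus strand): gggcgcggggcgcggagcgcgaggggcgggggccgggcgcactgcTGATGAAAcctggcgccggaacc
SLC1A4 (chr2:64989347-64989428, plus strand): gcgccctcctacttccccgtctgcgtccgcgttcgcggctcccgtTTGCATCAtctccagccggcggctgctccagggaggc
SLC1A5 (chr19:46784859-46784956, minus strand): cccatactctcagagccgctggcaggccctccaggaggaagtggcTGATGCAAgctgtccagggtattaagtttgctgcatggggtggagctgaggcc
SLC38A1 (chr12:46266487-46266565, minus strand): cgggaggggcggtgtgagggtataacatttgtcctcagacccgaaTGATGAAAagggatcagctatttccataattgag
In SLC3A2 and SLC1A4 the letters lie on the opposite strand. The match began at base 38 after the start in SLC3A2 and base 8 in SLC7A1, and at 7, 97 and 4 bases before the start in SLC1A4, SLC1A5 and SLC38A1.

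The E-box CACGTG, the hexamer that MYC and related factors bind, reads the same on both strands. It was in 3 of the 16 windows, those of SLC7A5, SLC1A5 and SLC43A1, against 7.26% of all windows, and in 3 of 9 members against 8.77% of genes.
SLC7A5 (chr16:87869587-87869682, minus strand): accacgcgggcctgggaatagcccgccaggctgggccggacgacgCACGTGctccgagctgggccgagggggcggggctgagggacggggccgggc
SLC1A5 (chr19:46787293-46787388, minus strand): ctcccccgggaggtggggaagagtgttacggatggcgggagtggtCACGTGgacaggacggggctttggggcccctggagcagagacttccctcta
SLC43A1 (chr11:57515764-57515859, minus strand): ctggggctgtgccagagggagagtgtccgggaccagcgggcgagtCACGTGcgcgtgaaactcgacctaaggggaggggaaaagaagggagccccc
The antioxidant-response-like letters TGACNNNGC, on both strands, were in 4 of the 16 windows (SLC7A5, SLC3A2, SLC7A1 and SLC1A5) against 13.3% of all windows. That is 4 of 9 members against 16.1% of genes. None of these matches overlapped another. In SLC1A5 the C/EBP-ATF-like letters lie in a different window from the E-box and the antioxidant-response-like letters. SLC6A9 and SLC38A2 held none of these letters in their windows, which says nothing about the factors.

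In vehicle the members differed widely in level. Levels are in CPM, counts scaled for sequencing depth, and were, to compare genes, divided by exon length in GENCODE release 29. Which annotation lies behind the counts is unknown here, and these lengths are approximate. SLC1A5, the neutral amino acid exchanger that takes up glutamine (also called ASCT2), was highest at 80.4 ± 3.36 CPM per kb (SD, n = 4). Next came SLC7A5 (LAT1, the exchanger of large neutral amino acids such as leucine) at 54.6 ± 1.68 CPM per kb and the sodium-coupled transporter SLC38A2 (SNAT2) at 44.5 ± 0.959. SLC3A2 at 38.2 ± 1.26 CPM per kb and SLC38A1 (SNAT1) at 35.9 ± 1.45 overlapped between libraries, 36.5 to 39.4 against 34.0 to 37.4. The arginine and lysine transporter SLC7A1 (CAT1) stood at 16.5 ± 0.252 CPM per kb. The other 4 lay far lower. The alanine, serine and cysteine exchanger SLC1A4 (ASCT1) was at 3.04 ± 0.0555 CPM per kb and SLC7A11 at 2.79 ± 0.0722. The glycine transporter SLC6A9 (GLYT1) was at 2.58 ± 0.225 CPM per kb, with a range of 2.36 to 2.89 that overlapped the 2.70 to 2.85 of SLC7A11. SLC43A1 (LAT3), a carrier of large neutral amino acids, was lowest at 1.77 ± 0.154 CPM per kb.

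**Figure D1:**
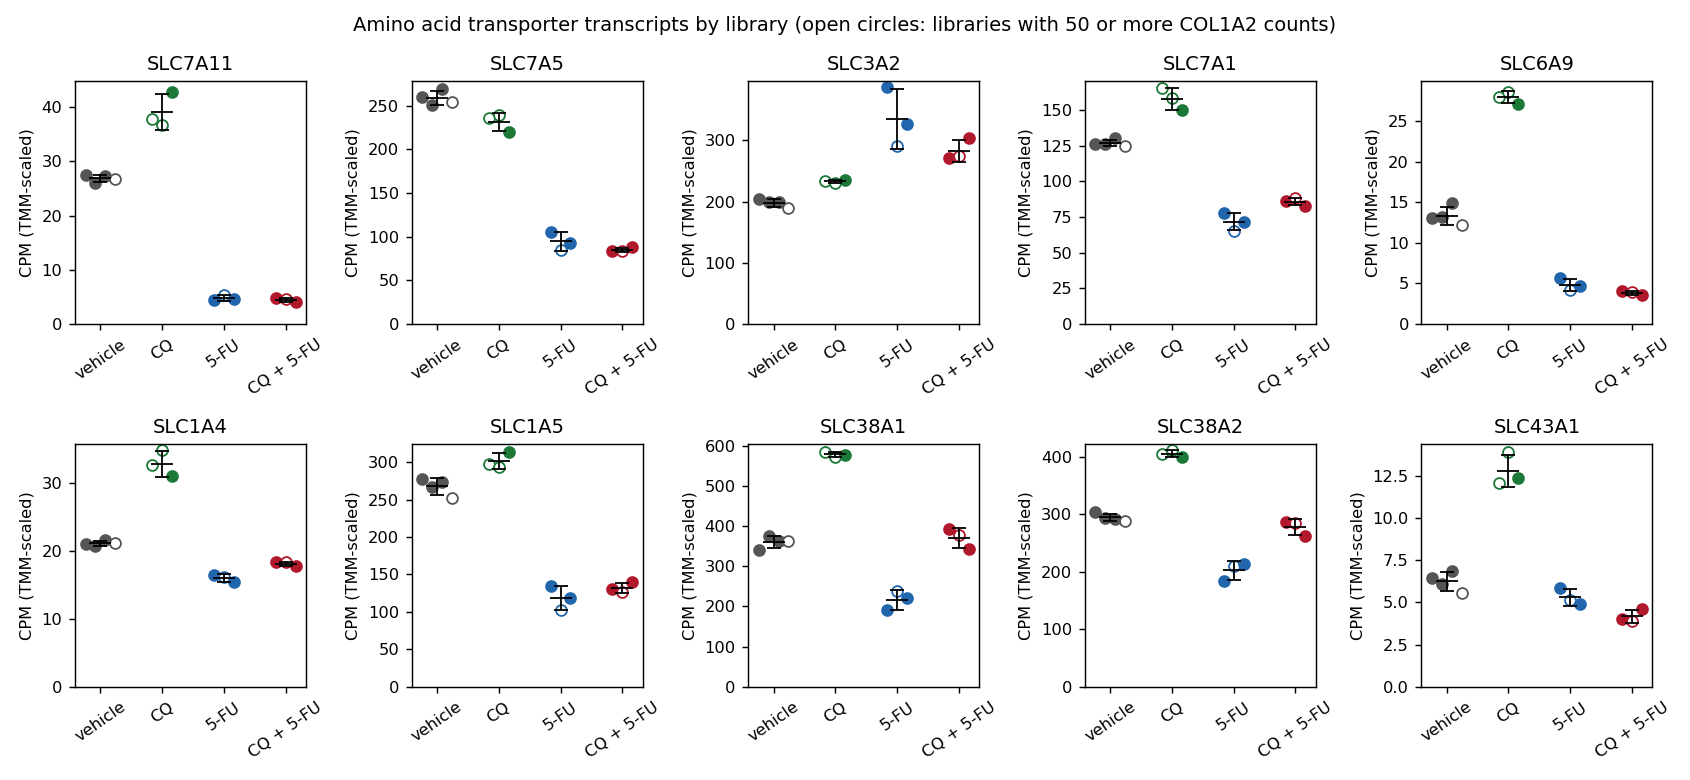
Level of each of the 10 transporter genes in CPM (y axis, from 0) in the 13 libraries by group (x axis; CQ is chloroquine), with a point per library, the group mean as a dash and the SD as bars. SLC7A11 falls from 26 to 27.5 CPM in vehicle to 4.11 to 5.38 CPM in the 6 libraries with 5-FU, while SLC3A2 stands higher in those 6 libraries than in vehicle.

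Chloroquine alone raised 8 of the 10 transporter genes and lowered none (edgeR quasi-likelihood test, Benjamini-Hochberg adjusted p under 0.05 over all genes tested). Of all 19514 genes, 20.3% were called higher and 19.1% lower in the same comparison. The median log2 fold change of the 10 was 0.50, beside 0.023 over all genes. All 10 had no overlap between the chloroquine and vehicle libraries, including SLC7A5 and SLC1A5, which did not pass the test, and the same held for 47.8% of all genes tested.

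5-FU alone lowered 8 of the 10 and raised 1, SLC3A2, beside 29.5% of all genes called lower and 30.8% higher. The median of the 10 was -0.78 (log2), against 0.010 over all genes. In the combination against vehicle, 7 were lower and 1 higher, with 27.2% of all genes lower and 28.1% higher, and the median was -0.57 against 0.0057. These 3 comparisons share the vehicle libraries.

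**Figure D2:**
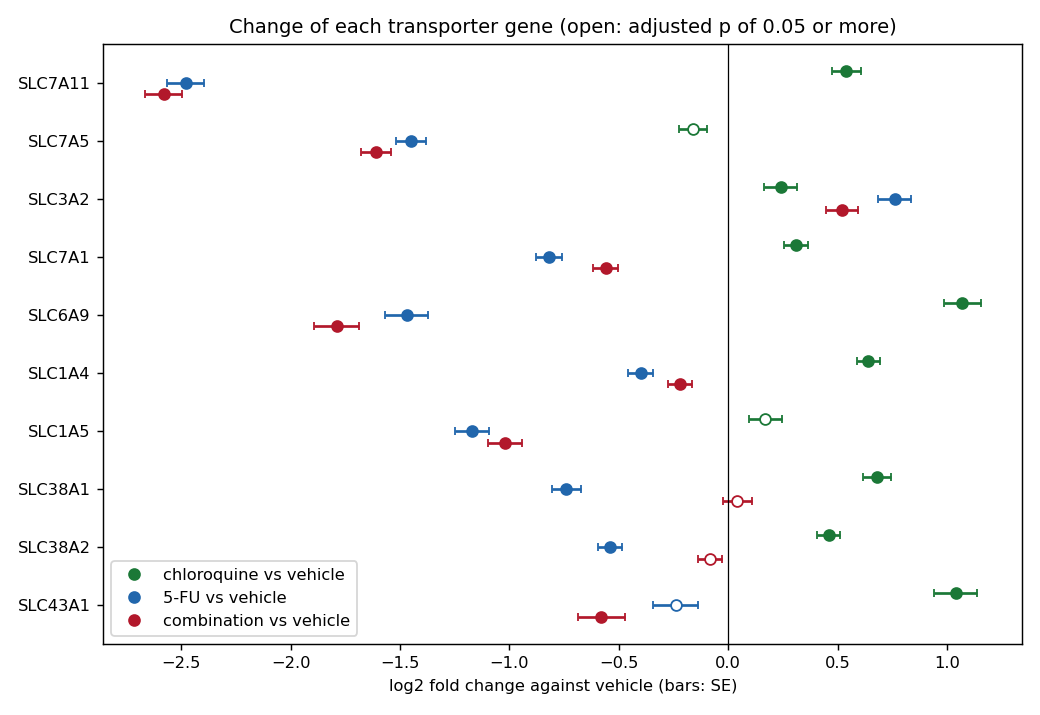
log2 fold change against vehicle (x axis, bars are the SE) of each transporter gene (y axis) with chloroquine, 5-FU or both, where open points have an adjusted p of 0.05 or more. With 5-FU and with both drugs SLC3A2 is the sole gene of the 10 that passed on the higher side, at 0.76 and 0.52.

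The cystine transporter gene SLC7A11 had the largest fall of the 10 with 5-FU. It was at 27.5, 26.0, 27.3 and 26.7 CPM in vehicle replicates 1 to 4 and at 37.9, 36.7 and 42.9 CPM with chloroquine. With 5-FU it was at 4.50, 5.38 and 4.55 CPM, and in the combination at 4.76, 4.58 and 4.11 CPM. The chloroquine libraries were all above vehicle, and the 6 libraries with 5-FU were all far below it and overlapped each other. The log2 fold change was 0.54 ± 0.0675 (SE) with chloroquine (edgeR adjusted p = 2.68e-05), a rise of 1.46-fold. With 5-FU it was -2.48 ± 0.0844 (edgeR adjusted p = 2.84e-11), 5.59-fold lower, and 0.0769% of all genes had a lower value. The combination stood at -2.58 ± 0.0853 against vehicle (edgeR adjusted p = 3.23e-11) and at -3.12 ± 0.0871 against chloroquine, 8.70-fold lower (edgeR adjusted p = 5.17e-11). Adding chloroquine to 5-FU gave -0.099 ± 0.104, which did not pass (95% interval -0.32 to 0.13). SLC7A11-AS1, an antisense gene that shares 865 exon bases with SLC7A11, had 0 or 1 count per library.

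SLC3A2, the heavy-chain partner, was higher than vehicle in all 3 treatments, and so moved opposite to SLC7A11 with 5-FU and in the combination. It was at 204, 199, 199 and 189 CPM in vehicle, 234, 230 and 235 CPM with chloroquine, 387, 291 and 327 CPM with 5-FU and 272, 274 and 304 CPM in the combination. Every treated library was above every vehicle library, and 5-FU spread most. The log2 fold change with 5-FU was 0.76 ± 0.0753 (edgeR adjusted p = 7.95e-07), and in the combination it was 0.52 ± 0.0754 (edgeR adjusted p = 4.1e-05). With chloroquine alone it was 0.24 ± 0.0759 (edgeR adjusted p = 0.0221). That last call was lost without any 1 of the 3 chloroquine libraries (edgeR adjusted p = 0.0525 to 0.0805) and in the 8 libraries low in COL1A2 (0.23, edgeR adjusted p = 0.0927).

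SLC7A5, the light chain of the large neutral amino acid exchanger, fell with 5-FU while the heavy chain rose. It was at 260, 251, 269 and 254 CPM in vehicle and 236, 239 and 220 CPM with chloroquine. It was at 106, 84.7 and 93.0 CPM with 5-FU and 83.5, 83.1 and 87.7 CPM in the combination. The 6 libraries with 5-FU were all far below the other 7. The log2 fold change was -1.45 ± 0.0668 with 5-FU (edgeR adjusted p = 4.84e-10) and -1.61 ± 0.0673 in the combination (edgeR adjusted p = 2.53e-10). With chloroquine alone it was -0.16 ± 0.0636, which did not pass (edgeR adjusted p = 0.0624) and passed among other alternatives with DESeq2 (-0.18), in the 5 libraries rich in COL1A2 (-0.096) and without 5-FU replicate 1 or 2 (-0.17 in both, edgeR adjusted p = 0.00746 and 0.0151). SLC7A5P1, a pseudogene copy whose reads the counting could split from SLC7A5, had 16 to 47 counts per library.

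**Figure D3:**
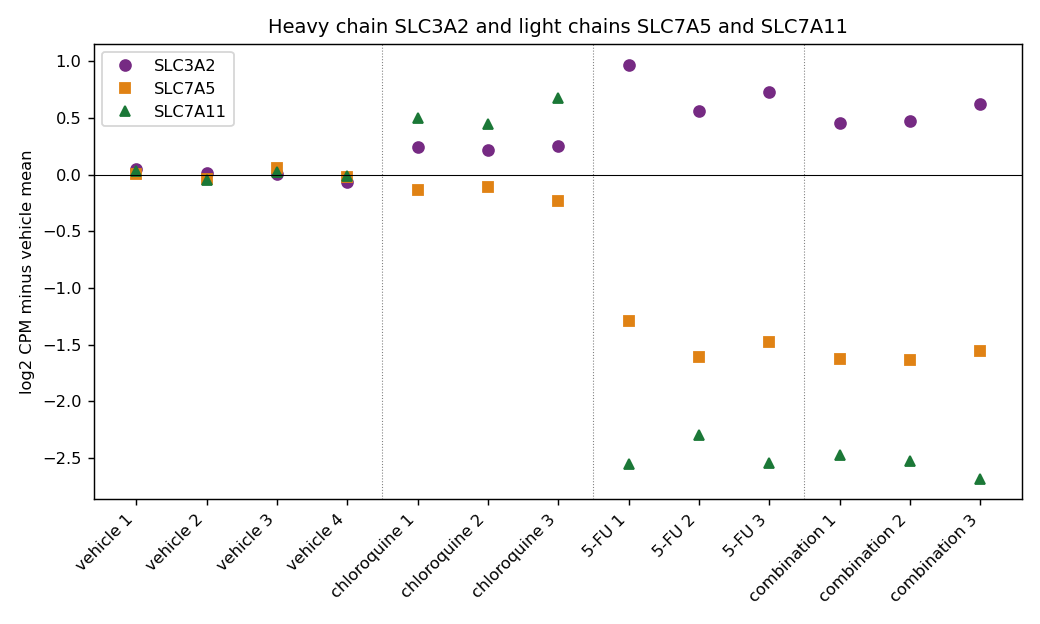
log2 CPM of the heavy chain gene SLC3A2 and the light chain genes SLC7A5 and SLC7A11 in each library (x axis), less the mean of the gene in vehicle (y axis, log2). In the 6 libraries with 5-FU every SLC3A2 point is above 0 and every light chain point is below it.

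SLC6A9, SLC43A1 and SLC1A4, which carry glycine, large neutral and small neutral amino acids, rose with chloroquine alone. SLC6A9 was at 13, 13.2, 14.9 and 12.2 CPM in vehicle, 28.0, 28.6 and 27.1 CPM with chloroquine, 5.62, 4.18 and 4.71 CPM with 5-FU and 4.03, 4.00 and 3.57 CPM in the combination. No treated library of SLC6A9 overlapped vehicle. Its log2 fold change was 1.07 ± 0.0838 with chloroquine (2.09-fold, edgeR adjusted p = 5.85e-07), -1.47 ± 0.099 with 5-FU (edgeR adjusted p = 1.9e-08) and -1.79 ± 0.102 in the combination (edgeR adjusted p = 4.78e-09). SLC6A9 shares 404 exon bases with CCDC24 on the opposite strand, and it is unknown here if strand entered the counting. CCDC24 had 69 to 79 counts in vehicle, 34 to 63 with chloroquine, 231 to 274 with 5-FU and 119 to 148 in the combination. Against vehicle CCDC24 moved opposite to SLC6A9 in each treatment, while both were lower in the combination than with 5-FU. The part of this overlap in the values of SLC6A9 was not tested.

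SLC43A1 was at 6.43, 6.11, 6.86 and 5.57 CPM in vehicle, 12.1, 13.9 and 12.4 CPM with chloroquine, 5.86, 5.15 and 4.90 CPM with 5-FU and 4.03, 3.87 and 4.60 CPM in the combination. The chloroquine libraries stood clear of all others, the combination lay below vehicle, and 5-FU overlapped vehicle. The log2 fold change was 1.04 ± 0.0979 with chloroquine (edgeR adjusted p = 2.72e-06), -0.24 ± 0.104 with 5-FU (edgeR adjusted p = 0.0629) and -0.58 ± 0.107 in the combination (edgeR adjusted p = 0.000326). The 5-FU value passed without 5-FU replicate 1 (-0.32) or vehicle replicate 4 (-0.29). In the 5 libraries rich in COL1A2 alone, the combination value was -0.53 and did not pass.

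SLC1A4 was at 21.0, 20.7, 21.6 and 21.1 CPM in vehicle, 32.7, 34.8 and 31.0 CPM with chloroquine, 16.5, 16.2 and 15.4 CPM with 5-FU and 18.3, 18.3 and 17.8 CPM in the combination. Its 4 groups did not overlap. The log2 fold change was 0.64 ± 0.0535 with chloroquine (edgeR adjusted p = 9.82e-07), -0.40 ± 0.0565 with 5-FU (edgeR adjusted p = 2.63e-05) and -0.22 ± 0.0558 in the combination (edgeR adjusted p = 0.00371). With scaling by library size only, which raises the median of all genes by over 0.1, the combination value was -0.073 and did not pass, and in the 5 libraries rich in COL1A2 it was -0.21 and did not pass. Its paralogue SLC1A5 was at 277, 267, 274 and 252 CPM in vehicle, 298, 294 and 314 CPM with chloroquine, 135, 102 and 119 CPM with 5-FU and 130, 126 and 140 CPM in the combination. The 6 libraries with 5-FU were all far below the other 7. SLC1A5 was at -1.17 ± 0.0777 (log2) with 5-FU (edgeR adjusted p = 1.57e-08) and at -1.02 ± 0.0772 in the combination (edgeR adjusted p = 7.31e-08).

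With chloroquine alone SLC1A5 was at 0.17 ± 0.0744 (edgeR adjusted p = 0.0771). It passed among other alternatives with a term for the libraries rich in COL1A2 (0.24), in those 5 alone (0.24), and without 5-FU replicate 1 or 2 (0.16 in both). An antisense gene, AC008622.2, shares 23.4% of the exon bases of SLC1A5 and had 1 to 13 counts per library.

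The sodium-coupled neutral amino acid transporters SLC38A1 and SLC38A2 rose with chloroquine and fell with 5-FU. With both drugs they stood near vehicle. SLC38A1 was at 341, 375, 363 and 363 CPM in vehicle, 585, 572 and 577 CPM with chloroquine, 190, 238 and 220 CPM with 5-FU and 392, 378 and 343 CPM in the combination. The combination overlapped vehicle, and the single drugs did not. Its log2 fold change was 0.68 ± 0.0657 with chloroquine (edgeR adjusted p = 3.15e-06), -0.74 ± 0.0677 with 5-FU (edgeR adjusted p = 3.67e-07) and 0.042 ± 0.0662 in the combination (95% interval -0.10 to 0.18). SLC38A2, which adapts to amino acid supply, was at 303, 294, 292 and 288 CPM in vehicle, 405, 411 and 399 CPM with chloroquine, 184, 210 and 213 CPM with 5-FU and 287, 285 and 262 CPM in the combination. Its combination libraries lay just under vehicle. SLC38A2 gave 0.46 ± 0.0525 with chloroquine (edgeR adjusted p = 1.26e-05), -0.54 ± 0.0537 with 5-FU (edgeR adjusted p = 8.26e-07) and -0.083 ± 0.053 in the combination (95% interval -0.20 to 0.031). With scaling by library size only, SLC38A1 passed in the combination at 0.19.

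SLC7A1, the cationic amino acid transporter gene, rose with chloroquine and fell with 5-FU and in the combination. It was at 126, 126, 130 and 125 CPM in vehicle, 165, 158 and 150 CPM with chloroquine, 77.8, 65.5 and 71.7 CPM with 5-FU and 86.4, 88.0 and 83 CPM in the combination. None of its groups overlapped. The log2 fold change was 0.31 ± 0.0562 with chloroquine (edgeR adjusted p = 0.000555), -0.82 ± 0.0584 with 5-FU (edgeR adjusted p = 3.06e-08) and -0.56 ± 0.0577 in the combination (edgeR adjusted p = 1.38e-06). In the 8 libraries low in COL1A2, with 1 chloroquine library, the chloroquine value was 0.23 and did not pass (edgeR adjusted p = 0.0583).

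Whether chloroquine acted alike with and without 5-FU was asked by the interaction, the log2 change of the combination against 5-FU less that of chloroquine against vehicle. It was negative and passed in 5 of the 10, and positive and passing in none, beside 19.3% of all genes called lower and 20.6% higher. Of the 8 genes that rose with chloroquine alone, these were SLC7A11, SLC3A2, SLC6A9, SLC1A4 and SLC43A1. In the other 3, SLC38A1, SLC38A2 and SLC7A1, the interaction did not pass. The combination against 5-FU by itself called 4 of the 10 higher and 3 lower, beside 20.2% and 18.3% of all genes. With the replicate number as a block it called 3 higher and 2 lower, and 3 and 1 with the 2 groups alone. Its median over the 10 was 0.029, and over all genes 0.025.

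SLC38A1 and SLC38A2 kept the chloroquine rise with 5-FU present. SLC38A1 was 1.72-fold higher in the combination than with 5-FU (log2 0.78 ± 0.0715, edgeR adjusted p = 2.1e-06), and its interaction was 0.10 ± 0.0971 (95% interval -0.11 to 0.31). SLC38A2 gave 0.46 ± 0.0568 (edgeR adjusted p = 2.9e-05), with an interaction of -0.0040 ± 0.0776 (95% interval -0.17 to 0.16). SLC7A1 gave 0.26 ± 0.0617 (edgeR adjusted p = 0.0042), lost at 0.18 in the 8 libraries low in COL1A2, with an interaction of -0.053 ± 0.0836 (95% interval -0.23 to 0.13). These intervals leave room for differences of their own size.

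SLC6A9 and SLC43A1 lost the rise with 5-FU present. Their interactions were both -1.38, with SE of 0.144 and 0.150 (edgeR adjusted p = 7.21e-06 and 1.07e-05). SLC6A9 was at -0.32 ± 0.117 in the combination against 5-FU (edgeR adjusted p = 0.0436). That call was lost in most alternatives, among them limma-voom, DESeq2, the model with the replicate number as a block (-0.32, edgeR adjusted p = 0.064; with the 2 groups alone -0.34, edgeR adjusted p = 0.0959), and without 10 of the 13 libraries one at a time (-0.35 to -0.21). In the 5 libraries rich in COL1A2 it was -0.065. SLC43A1 was at -0.35 ± 0.114 (edgeR adjusted p = 0.0264). That call was lost, among other alternatives, without 5-FU replicate 1 or combination replicate 1 or 2 (-0.32 to -0.27), in the 8 or the 5 libraries, and with DESeq2, and with the block in the 2 groups alone (-0.36, edgeR adjusted p = 0.065).

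SLC7A11 had an interaction of -0.64 ± 0.125 (edgeR adjusted p = 0.00102), SLC3A2 of -0.48 ± 0.111 (edgeR adjusted p = 0.00335) and SLC1A4 of -0.46 ± 0.0805 (edgeR adjusted p = 0.000472). SLC7A11 too had no called rise in the combination against 5-FU (-0.099 ± 0.104). The interaction of SLC1A4 was -0.37 in the 8 libraries low in COL1A2, where it did not pass. SLC3A2 was lower in the combination than with 5-FU (-0.24 ± 0.0806, edgeR adjusted p = 0.0286), although their libraries overlapped. Without 5-FU replicate 1 this was -0.13, without combination replicate 1 or 2 it was -0.21 and -0.22, and none of these passed. In the 5 libraries rich in COL1A2 it was -0.089. SLC1A4 was higher by 0.18 ± 0.06 (edgeR adjusted p = 0.0292), a call lost in 12 of 25 alternatives, among them without 5-FU replicate 3 (0.15) or combination replicate 1 or 2 (0.17 in both), in the 8 or the 5 libraries, and with the replicate block (0.18, edgeR adjusted p = 0.0659; 0.16 with the 2 groups alone, edgeR adjusted p = 0.269). SLC7A5 and SLC1A5 did not pass, at -0.16 ± 0.0701 and 0.16 ± 0.0814. SLC7A5 passed in 4 of 25 alternatives, among them without 5-FU replicate 2 (-0.23) and in the 8 libraries low in COL1A2 (-0.21, edgeR adjusted p = 0.0412), while without 5-FU replicate 1 it was at -0.072. SLC1A5 passed in 3 of 25, without 5-FU replicate 1 (0.25), in the 5 libraries rich in COL1A2 (0.30) and with a term for them (0.16), while without 5-FU replicate 2 it was at 0.055. The interactions of SLC7A5 and SLC1A5 were 0.0012 ± 0.095 and -0.019 ± 0.11.

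**Figure D4:**
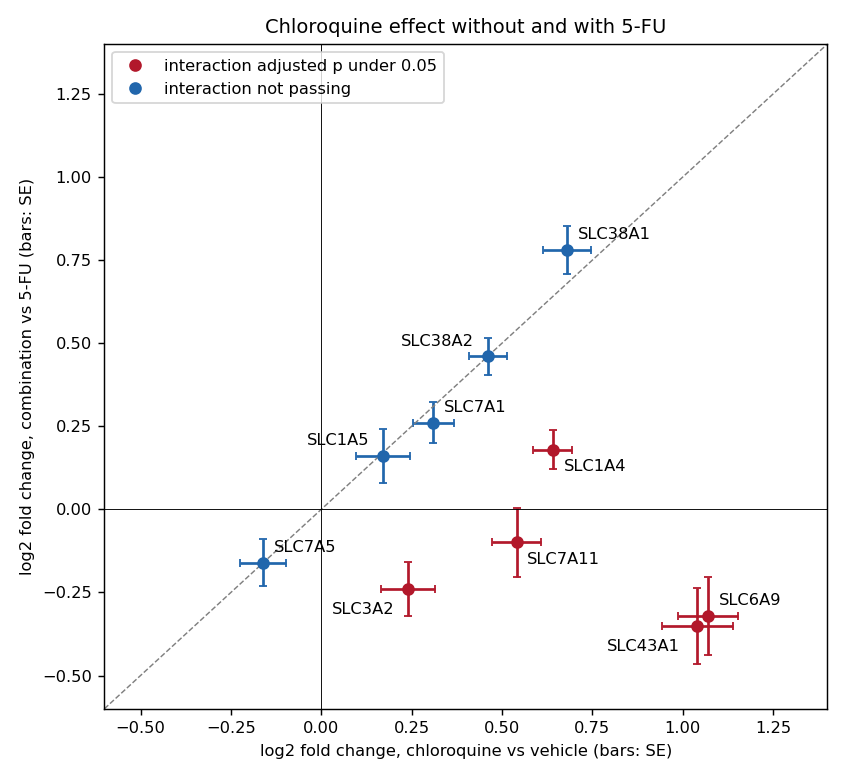
log2 fold change of each transporter gene with chloroquine alone against vehicle (x axis) and with chloroquine added to 5-FU (y axis), bars are the SE and the dashed line marks equal effects. Points in red passed the interaction test and all 5 lie below the line, with SLC6A9 and SLC43A1 farthest from it at an interaction of -1.38.

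Seen from chloroquine, adding 5-FU lowered 9 of the 10 and raised SLC3A2, beside 25.7% of all genes lower and 24.8% higher. All 10 passed, and none overlapped between groups, as was so for 60.5% of all genes tested. The median was -1.04, against -0.013 over all genes. The values ran from -3.12 for SLC7A11 and -2.85 ± 0.103 for SLC6A9 (7.21-fold lower) to -0.54 ± 0.0566 for SLC38A2. SLC3A2 was at 0.28 ± 0.081 (edgeR adjusted p = 0.00985), a call lost without combination replicate 3 (0.23, edgeR adjusted p = 0.0539).

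Across the 13 libraries the shapes of the members could be compared by the root mean square distance between log2 CPM values, each centred on its vehicle mean. The nearest pair was SLC1A4 and SLC38A2 at 0.147, then SLC38A1 and SLC38A2 at 0.164. SLC7A11 and its partner SLC3A2 were the farthest pair at 2.15. Among 10696 genes whose log2 CPM averaged 3 or more, the gene nearest to SLC7A11 was MYC at 0.364, the activator of growth genes. After it came ALDH1L2, a mitochondrial folate enzyme, at 0.477 and SHMT2, mitochondrial serine hydroxymethyltransferase, at 0.645. The pseudogenes HNRNPA1P7 and HNRNPA1P10, which may take reads of their parent gene, and OXCT1, a ketone body enzyme, followed at 0.656 to 0.657. Pearson r with SLC7A11 over the same 13 libraries, which share the treatments, was 0.958 to 0.980 for the 6. With chloroquine alone MYC was at -0.050 ± 0.0658 (log2) and did not pass, ALDH1L2 was at 0.87 ± 0.0784, and SLC7A11 at 0.54.

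Other plasma membrane amino acid transporters went both ways with 5-FU and in the combination, while those called with chloroquine all rose. Of 29 such genes listed, 17 passed the filter. SLC6A5 is left out of the counts because it passed through the treated groups. Chloroquine raised 7 of the other 16 and lowered none (median 0.23), beside 20.3% of all genes higher and 19.1% lower. With 5-FU 6 rose and 6 fell (median -0.25), beside 30.8% and 29.5% of all genes. In the combination 4 rose and 7 fell (median -0.26), beside 28.1% and 27.2%. The 7 include SLC38A5, which passed the filter only through libraries without 5-FU. The neutral amino acid transporter gene SLC6A15 was at 117 ± 2.55 CPM in vehicle and 118 ± 2.82 under chloroquine, then 54.2 ± 3.41 under 5-FU and 69.1 ± 5.47 in the combination. Its log2 change with 5-FU was -1.10 ± 0.0607 (edgeR adjusted p = 2.66e-09). The glutamate transporter gene SLC1A3 was at -1.01 ± 0.0899 with 5-FU (edgeR adjusted p = 2.75e-07) and -0.43 ± 0.0871 in the combination. The 6 genes that rose with 5-FU stood at 18.6 CPM (SLC7A8) or less in vehicle. SLC38A4, an amino acid transporter of the SNAT family, went from 0.775 ± 0.211 CPM in vehicle to 1.68 ± 0.367 under chloroquine, 2.16 ± 0.282 under 5-FU and 2.56 ± 0.318 in the combination. The neuronal glycine transporter gene SLC6A5 had 1 count in all vehicle libraries together, 4 to 8 per library with chloroquine, 12 to 19 with 5-FU and 6 to 11 in the combination. In the combination SLC7A3, a cationic amino acid transporter gene, was at -0.80 ± 0.198 (edgeR adjusted p = 0.00333). SLC38A5 had 2 to 3 counts per library there against 2 to 12 in vehicle, ranges that overlap. SLC1A2, another glutamate transporter gene, rose with chloroquine (1.37 ± 0.278, from 0.730 ± 0.23 to 1.89 ± 0.475 CPM, edgeR adjusted p = 0.00139).

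**Figure D5:**
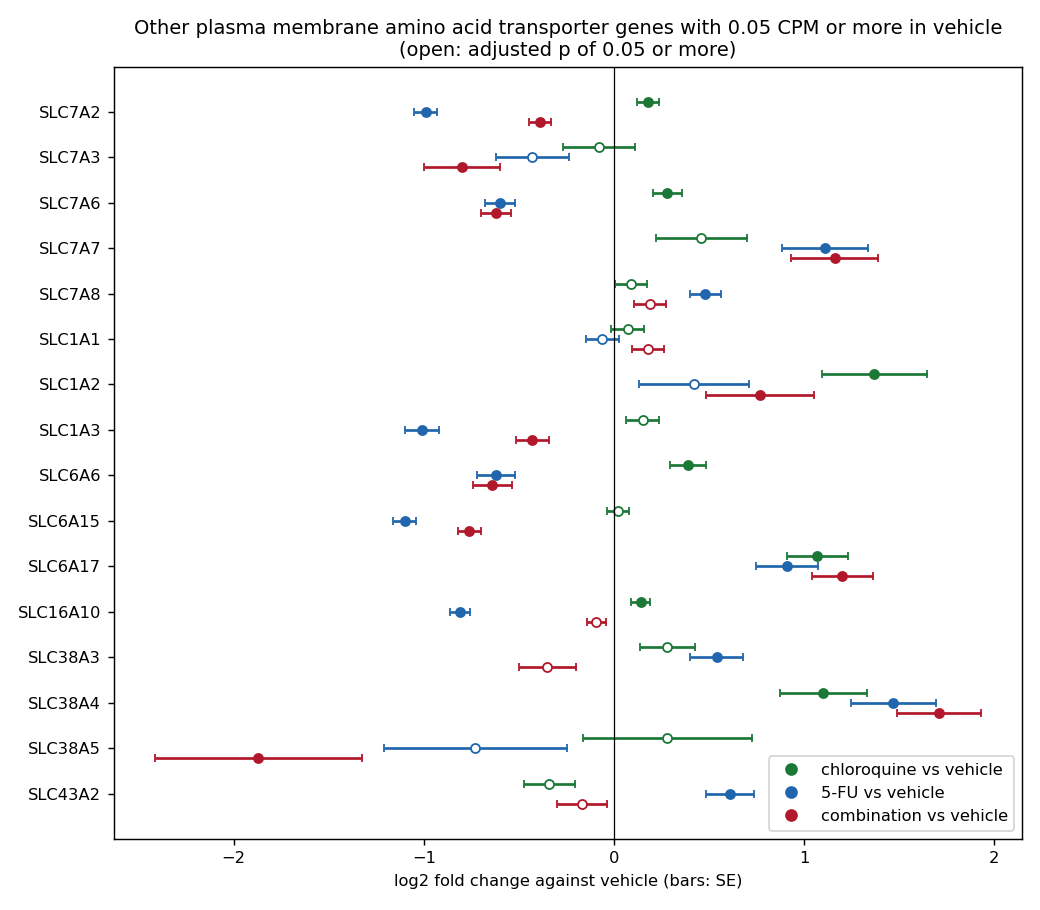
log2 fold change against vehicle (x axis, bars are the SE) of 16 of the 17 other plasma membrane amino acid transporter genes tested (y axis), where open points have an adjusted p of 0.05 or more and SLC6A5, with 1 count in vehicle, is not drawn. SLC6A15, SLC1A3 and SLC7A2 lie lowest with 5-FU, at -1.10, -1.01 and -0.99.

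Of 8 lysosomal amino acid transporters tested, 3 rose and 1 fell with chloroquine (median 0.15), against 20.3% and 19.1% of all genes. With 5-FU 3 rose and 1 fell (0.12), against 30.8% and 29.5%, and in the combination 4 rose and 1 fell (0.14), against 28.1% and 27.2%. SLC66A1, which exports cationic amino acids from lysosomes, went from 25.9 ± 1.06 CPM in vehicle to 32.4 ± 0.636 under chloroquine, 55.3 ± 9.1 under 5-FU and 48.9 ± 5.4 in the combination. CTNS, the lysosomal cystine exporter, was at 0.29 ± 0.0621 with chloroquine (edgeR adjusted p = 0.00185) and 0.45 ± 0.0614 with 5-FU (edgeR adjusted p = 1.97e-05). SLC38A7, which carries glutamine, fell with 5-FU (log2 -0.31 ± 0.0619, edgeR adjusted p = 0.000556) and in the combination (-0.85 ± 0.0641). The arginine sensor SLC38A9 rose in the combination by 0.47 ± 0.0712. SLC36A4 fell with chloroquine (log2 -0.21 ± 0.0662) and rose in the combination (0.22 ± 0.0647, edgeR adjusted p = 0.00993).

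Among 17 tested regulators of transporter transcription, 9 rose and 1 fell with chloroquine (median 0.18), where 20.3% and 19.1% of all genes did. With 5-FU 6 rose and 6 fell (-0.064), near the 30.8% and 29.5% of all genes, and in the combination 8 rose and 5 fell (0.17), where 28.1% and 27.2% of all genes did. ATF4 mRNA was at 772 ± 21.1 CPM in vehicle and 874 ± 31.2 under chloroquine, then 422 ± 9.17 under 5-FU and 479 ± 24.1 in the combination, and its log2 change with 5-FU was -0.87 ± 0.0431 (edgeR adjusted p = 9.44e-10). Control of ATF4 is largely at translation, which was not measured. DDIT3, which encodes the stress factor CHOP, went from 6.79 ± 0.506 CPM to 13.9 ± 1.6 under chloroquine, 43.4 ± 3.69 under 5-FU and 56.0 ± 3.58 in the combination. PPP1R15A, a phosphatase subunit that reverses the stress block on translation, rose by 1.07 ± 0.0849 under chloroquine, 1.75 ± 0.0837 under 5-FU and 1.66 ± 0.0837 in the combination. TRIB3, a pseudokinase that restrains ATF4, fell with chloroquine (log2 -0.23 ± 0.0839, edgeR adjusted p = 0.0455). In the combination TRIB3 was higher than vehicle (0.24 ± 0.0811, edgeR adjusted p = 0.0212). MYC was at 76.3 ± 1.1 CPM in vehicle and 73.6 ± 3.54 under chloroquine, then 14.3 ± 1.56 under 5-FU and 16.8 ± 1.46 in the combination. NFE2L2, which encodes the antioxidant factor NRF2, was at -0.20 ± 0.072 with 5-FU (edgeR adjusted p = 0.0237).

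Of 13 known amino acid response genes of ATF4, all tested, 8 rose and 1 fell with chloroquine (median 0.27), beside 20.3% and 19.1% of all genes. With 5-FU 1 rose and 10 fell (-0.78), beside 30.8% and 29.5%, and in the combination 2 rose and 9 fell (-0.79), beside 28.1% and 27.2%. The interaction called 7 lower and 1 higher, beside 19.3% and 20.6%. The serine and glycine pathway genes SHMT2 and PHGDH fell most with 5-FU (log2 -1.64 ± 0.0579 and -1.51 ± 0.0988). In the combination SHMT2 was at -1.88 ± 0.0586 and PSAT1, of serine synthesis, at -1.36 ± 0.0466. CHAC1, a glutathione-degrading enzyme, was at 3.13 ± 0.324 CPM in vehicle and 10.2 ± 1.38 under chloroquine, then 3.00 ± 0.247 under 5-FU and 2.31 ± 0.371 in the combination, with an interaction of -2.07 ± 0.203 (edgeR adjusted p = 4.18e-06). ASNS, asparagine synthetase, had 0.71 ± 0.167 with chloroquine, -0.78 ± 0.18 with 5-FU and an interaction of -1.21 ± 0.262 (edgeR adjusted p = 0.00215). VLDLR rose with chloroquine by 1.19 ± 0.0934 and in the combination by 0.50 ± 0.096. SESN2, an inhibitor of mTORC1, was the 1 gene of the 13 that rose with 5-FU (0.37 ± 0.0535).

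Of 15 tested genes that use cystine or act in glutathione metabolism and ferroptosis, which include CHAC1 and CTH of the ATF4 list, 1 rose and 11 fell with 5-FU (median -0.38), beside 30.8% and 29.5% of all genes. With chloroquine 4 rose and 5 fell (-0.066), beside 20.3% and 19.1%, and in the combination 1 rose and 10 fell (-0.44), beside 28.1% and 27.2%. GCLM, a subunit of the enzyme that starts glutathione synthesis, was at 85.2 ± 1.68 CPM in vehicle and 47.2 ± 2.3 under chloroquine, then 68.2 ± 5.5 under 5-FU and 57.2 ± 2.7 in the combination, so that its lowest group was the one where SLC7A11 was highest. GPX4, the lipid peroxide reductase, fell with chloroquine (log2 -0.30 ± 0.0932, edgeR adjusted p = 0.0209). GPX4 did not pass with 5-FU (0.13 ± 0.0921) or in the combination (0.060 ± 0.0922). TFRC, the transferrin receptor gene, fell with 5-FU (log2 -1.61 ± 0.0538, edgeR adjusted p = 2.55e-11), and GGT1, which breaks down extracellular glutathione, rose with chloroquine by 1.42 ± 0.185 and with 5-FU by 0.82 ± 0.189. Glutathione reductase, GSR, fell with chloroquine (log2 -0.45 ± 0.0574) and with 5-FU (-0.70 ± 0.0578). CTH, which makes cysteine from cystathionine, rose with chloroquine (0.70 ± 0.0607) and fell with 5-FU (-0.94 ± 0.067). In the combination CBS, which makes cystathionine, was at -1.07 ± 0.0577, thioredoxin reductase TXNRD1 at -0.92 ± 0.0453 and the ferritin gene FTH1 at 0.44 ± 0.105, and all 3 passed.

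Of 20 tested genes that sense amino acids upstream of mTORC1, SESN2 again included, 5 rose and 3 fell with chloroquine (median 0.059), near the 20.3% and 19.1% of all genes. With 5-FU 9 rose and 3 fell (0.14), beside 30.8% and 29.5%, and in the combination 11 rose and 3 fell (0.26), beside 28.1% and 27.2%. RRAGC, a Rag GTPase, rose in the combination by 0.99 ± 0.0786 (edgeR adjusted p = 1.14e-07) and SESN1 by 0.83 ± 0.0597. FNIP1 and FNIP2, partners of folliculin, rose with chloroquine by 0.62 ± 0.0473 and 0.69 ± 0.0606. FNIP2 fell with 5-FU (log2 -0.53 ± 0.0638). FLCN (folliculin) and NPRL2, a subunit of the GATOR1 complex, rose with 5-FU, both by 0.65, with SE of 0.0769 and 0.0646. LAMTOR2, of the Ragulator complex, fell in all 3 treatments, at -0.34 ± 0.0678 (chloroquine), -0.72 ± 0.0688 (5-FU) and -0.32 ± 0.0673 (combination) on the log2 scale. LAMTOR4 fell with chloroquine (-0.43 ± 0.105) and RRAGA in the combination (-0.45 ± 0.0542).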

How the data were processed

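RNA of 13 TE11 libraries was sequenced from total RNA with a directional kit, per the labels' protocols. The authors deposited a table of counts, whole numbers of reads for each human gene symbol. DESeq is named in the submitters' processing notes without version or role, and the build there is GRCm38, which is a mouse build. Aligner, annotation and use of strand are not stated in the sources used here, and coordinates are those of the RefSeq sequences alone. Library totals ran from 17834539 to 23679833 counts. Groups came from the labels.

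Genes were filtered with filterByExpr, scaled by TMM and fitted over all 13 libraries, with 1 coefficient for each group, by the quasi-likelihood method of edgeR 4.0.16 in R 4.3.3. The 6 contrasts were adjusted by Benjamini-Hochberg over 19514 genes and called under 0.05. log2 CPM used a prior count of 2. The members, the gene lists and the tests were chosen with earlier results of these data known. Named genes are the 10 members, ATF4, DDIT3, NFE2L2, MYC, CHAC1, ASNS, GPX4, GCLM, in each list and treatment the called genes that rose most and fell most (at most 2 each), and the 6 genes nearest to SLC7A11. Of these, 1 gene is not reported here. SLC7A2 and SLC7A8 were chosen after their values were seen.

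Alternatives were DESeq2 size factors (RLE), library size only, DESeq2 1.42.0, limma-voom (limma 3.58.1), no filter, a minimum of 10 CPM in 3 libraries, fits of just the compared groups, the replicate block, libraries with or without 50 counts of COL1A2 or a term for them, an absolute log2 change of 1, and leaving out each library. A block fit of just those 2 drug groups, 5-FU and combination, and leaving SLC6A5 out of its list were chosen after seeing the data. Deviations from the group means of same-numbered libraries had r over 0.1 for each of the 3 numbers in 1 pair of groups, 5-FU and combination (0.341, 0.743 and 0.339). The labels do not say what a number shares. The values given for that comparison are from the fit without the block, and the block's stand beside those it changes.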

Additional observations from a re-analysis of the deposited data

Results flagged for a closer look

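In 5 genes the chloroquine effect differed with and without 5-FU by the interaction of the edgeR model over 13 libraries. The difference (log2, with 5-FU less without) was -0.64 for SLC7A11, -0.48 for SLC3A2, -1.38 for SLC6A9, -0.46 for SLC1A4 and -1.38 for SLC43A1. No vehicle library of the 10 genes stood apart from the other 3 by Dixon's test. Groups of 3 were not tested.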

How the results depend on the processing

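Across the alternatives, the 47 called values of the 10 genes kept their direction in all 1130 recomputed values and lost the call in 55. The 13 values that did not pass gained a call in 23 of 310 and changed sign in 34. Requiring an absolute log2 change of 1 left 2 genes with chloroquine, 4 with 5-FU, 4 in the combination, 0 in the combination against 5-FU, 5 in the combination against chloroquine and 2 in the interaction. The 7 genes called in the combination against 5-FU became 4 with no filter, with DESeq2, in the 5 libraries rich in COL1A2 and with the replicate block in the 2 groups alone, 3 with only the groups compared, and 3 to 8 without single libraries. The replicate block over all groups left 5 there and changed no other call. Sign changes were in values that had not passed. For the interaction of SLC38A2 they were 0.0089 with RLE, 0.016 with no filter, 0.0066 with the replicate block, 0.0084 with the COL1A2 term, 0.043 in the 8 libraries low in COL1A2, 0.022 with DESeq2 and -0.055 to 0.048 without single libraries. That of SLC7A5 was -0.14 with library size only, -0.088 at 10 CPM, -0.017 with the COL1A2 term and -0.059 to 0.10 without single libraries. That of SLC1A5 was 0.0012 with no filter, 0.013 with the block, 0.065 in the 5 libraries, 0.0073 with DESeq2 and -0.10 to 0.095 without single libraries. That of SLC38A1 was -0.039 with library size only and -0.0043 in the 5 libraries, and that of SLC7A1 was 0.056 in the 5 libraries and -0.10 to 0.022 without single libraries. Against vehicle the combination gave 0.066 for SLC38A2 with library size only, and -0.0063 to 0.093 for SLC38A1 without single libraries. Library size only moved the median of all genes to 0.12 with chloroquine, 0.20 with 5-FU, 0.15 in the combination and -0.14 in the interaction. It took the share of calls that were higher from 51.4 to 69.3%, 51.1 to 69.3%, 50.8 to 67.0% and 51.6 to 32.0%. In the 8 libraries low in COL1A2 chloroquine has 1 library, and in the 5 rich in it the other groups have 1 each, and a single library is taken to spread as the replicated ones do. Those 8 gave 4396 called genes with chloroquine against 7682. The causes of these changes were not tested.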
